A study of Mus musculus and Homo sapiens with 10 samples.

Results

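Lamina-associated domains (LADs) were compared at the places where a Nanopore LAD reached further than the Illumina LAD it covered. The regions are maximal stretches on chromosomes 1 to 19 and X that lie in the deposited Nanopore consensus LADs and in no Illumina consensus LAD, directly adjoin an Illumina LAD, and belong to a Nanopore LAD with at least 50% of its bases in Illumina LADs. Of 1238 Nanopore-only stretches, 938 met this rule. They fell into 792 extensions, which adjoin an Illumina LAD on 1 side, and 146 bridges, which fill the whole gap between 2 Illumina LADs. Together they covered 76.52 Mb, or 53.1% of the 144.02 Mb found in the Nanopore list alone. These regions were selected on LAD status in both lists, so their number, width and position are given as a description with no test.

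The mouse samples came from N2A, an established neuroblastoma cell line. The LaminB1-Dam cells carried the bacterial adenine methyltransferase Dam fused to lamin B1, the Dam cells carried unfused Dam as the control, and expression in both was induced with 2 µg/mL doxycycline. The series holds 1 LaminB1-Dam and 1 Dam sample sequenced by Nanopore-DamID. By Illumina-DamID it holds 2 LaminB1-Dam samples and 1 Dam sample. It also has 1 Nanopore sample labelled 10% LaminB1-Dam, 1 wildtype N2A sample and 3 human HEK293T samples. The human samples were not analysed here. Whether the 10% LaminB1-Dam or the wildtype sample entered a list is not stated in the labels. Each method is represented by a single list of intervals with no value per sample. No spread between samples can therefore be given, read depth behind each interval is unknown, and which of these samples entered each list is not stated in the labels.

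LADs are long stretches of chromatin that lie against the nuclear lamina, the protein meshwork under the inner nuclear membrane. They are generally poor in genes, rich in repressed tissue-specific gene families and replicated late, and their borders are often marked by active or CpG-rich promoters. In DamID, Dam tethered to a lamina protein methylates the adenine of GATC sites in nearby chromatin. DpnI, which cuts methylated GATC only, then releases the fragments that are sequenced. A border thus marks where the lamina signal fell below the level called as a LAD.

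Promoter sequences of 6 genes inside these regions show the range of sequence the Nanopore list added. Each is the 250 bases before a start of the gene listed by RefSeq on GRCm38.p6, the assembly behind mm10, 5′ to 3′ on the gene's own strand, with every CG dinucleotide in capitals. The 3 from bridges belong to Fmr1, encoding an RNA-binding protein active in neurons, Bub3, a spindle checkpoint protein, and Rpl31, a protein of the large ribosomal subunit. The 3 from extensions belong to Krt20, a keratin of the gut lining, Obp1a, an odorant-binding protein, and Fgf5, a growth factor of the hair cycle. All 6 were chosen after their values were seen, to show CpG-rich and CpG-poor examples.
Fmr1 (chrX:68678291-68678540, plus strand): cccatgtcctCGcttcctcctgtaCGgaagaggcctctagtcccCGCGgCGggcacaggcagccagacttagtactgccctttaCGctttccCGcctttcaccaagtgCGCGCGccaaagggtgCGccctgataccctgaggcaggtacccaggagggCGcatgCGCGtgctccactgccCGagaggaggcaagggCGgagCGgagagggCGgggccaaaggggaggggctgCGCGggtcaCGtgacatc
Bub3 (chr7:131560120-131560369, plus strand): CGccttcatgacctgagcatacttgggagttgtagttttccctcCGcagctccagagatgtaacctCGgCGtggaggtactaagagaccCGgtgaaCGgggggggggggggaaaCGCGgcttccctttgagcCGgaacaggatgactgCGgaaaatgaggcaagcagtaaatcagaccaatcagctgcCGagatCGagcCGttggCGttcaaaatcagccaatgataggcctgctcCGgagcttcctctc
Rpl31 (chr1:39367601-39367850, plus strand): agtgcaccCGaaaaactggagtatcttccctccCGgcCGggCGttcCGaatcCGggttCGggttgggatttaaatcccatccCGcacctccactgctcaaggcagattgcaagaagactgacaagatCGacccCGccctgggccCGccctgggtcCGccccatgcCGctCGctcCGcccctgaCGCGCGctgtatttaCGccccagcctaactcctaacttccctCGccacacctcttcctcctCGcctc
Krt20 (chr11:99438154-99438403, minus strand): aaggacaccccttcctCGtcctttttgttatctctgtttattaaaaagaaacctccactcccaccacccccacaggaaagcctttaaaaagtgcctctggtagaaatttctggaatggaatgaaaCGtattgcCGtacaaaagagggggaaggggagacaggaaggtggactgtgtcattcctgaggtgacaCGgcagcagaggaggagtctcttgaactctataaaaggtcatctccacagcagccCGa
Obp1a (chrX:78091375-78091624, minus strand): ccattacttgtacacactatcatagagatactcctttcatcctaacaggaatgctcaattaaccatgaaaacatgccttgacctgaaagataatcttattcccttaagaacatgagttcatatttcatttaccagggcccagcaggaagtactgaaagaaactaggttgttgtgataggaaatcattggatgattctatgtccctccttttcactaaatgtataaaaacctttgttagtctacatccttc
Fgf5 (chr5:98253934-98254183, plus strand): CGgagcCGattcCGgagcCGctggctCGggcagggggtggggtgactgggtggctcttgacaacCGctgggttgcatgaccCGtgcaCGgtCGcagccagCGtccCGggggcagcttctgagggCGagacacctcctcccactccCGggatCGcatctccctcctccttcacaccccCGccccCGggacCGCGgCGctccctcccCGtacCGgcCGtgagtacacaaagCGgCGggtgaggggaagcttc
The printed stretches hold 21 CG in Fmr1, 15 in Bub3 and 21 in Rpl31, the bridge genes, and 24 in Fgf5. Krt20 holds 5 and Obp1a holds 0. GATC, the site that Dam methylates, occurs 1 time in the printed stretch of Bub3, Rpl31 and Fgf5 and 0 times in those of Fmr1, Krt20 and Obp1a.

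Mature microRNAs of 2 further regions are shown because microRNA genes made up the densest gene groups found. Each sequence is from RefSeq on GRCm38.p6, with the seed, bases 2 to 8, in capitals. The first 3 come from an extension on chromosome 12 and the last 2 from a bridge on chromosome 1.
miR-379-5p (chr12:109709065-109709085, plus strand): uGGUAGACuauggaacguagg
miR-411-5p (chr12:109710190-109710210, plus strand): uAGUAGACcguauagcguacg
miR-134-5p (chr12:109734145-109734166, plus strand): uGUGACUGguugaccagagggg
miR-29b-3p (chr1:195037091-195037113, plus strand): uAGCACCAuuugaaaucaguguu
miR-29c-3p (chr1:195037600-195037621, plus strand): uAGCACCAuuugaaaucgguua
miR-29b-3p and miR-29c-3p share the seed AGCACCA. The 3 from chromosome 12 have seeds that differ from one another.

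Extensions were mostly narrow. Their median width was 40 kb (interquartile range 20 to 80 kb), and 381 of 792, or 48.1%, were 20 kb wide, which is 1 step of the grid on which all borders of both lists lie. The 53 extensions wider than 200 kb were 6.69% of the number and held 20.74 of 56.28 Mb, or 36.9% of the bases. Left and right sides were extended about as often, 393 and 399 times. Bridges were wider, with a median of 120 kb (interquartile range 80 to 160 kb) and a range of 60 to 840 kb, and covered 20.24 Mb. No bridge could be narrower than 60 kb, because that was the narrowest gap between LADs in either list.

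**Figure D1:**
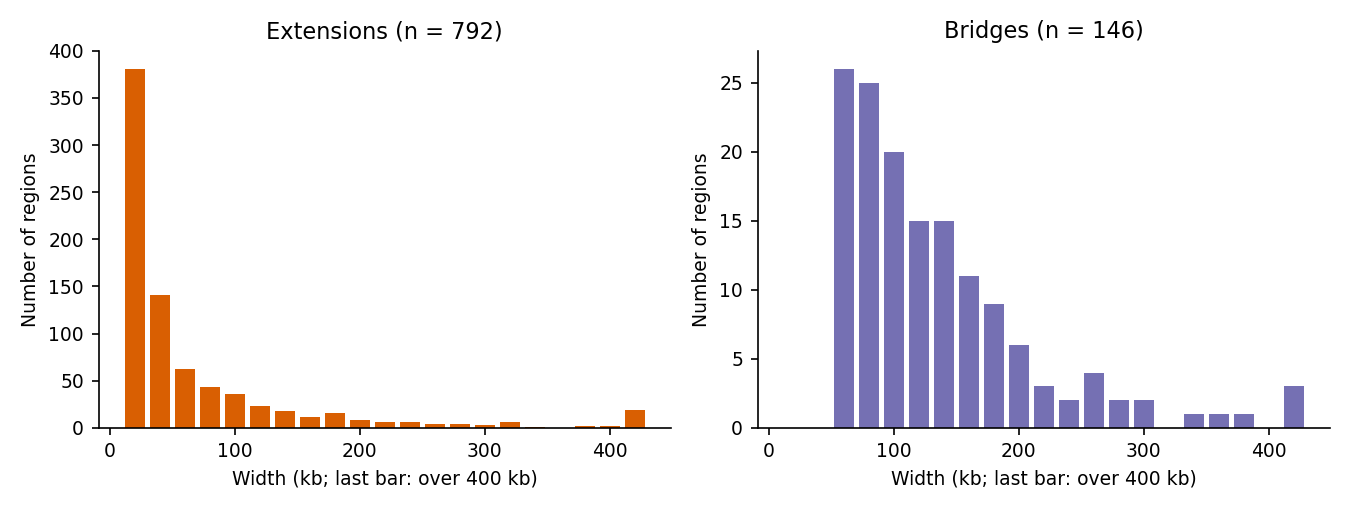
Number of extensions (left, n = 792) and bridges (right, n = 146) by width in kb, 1 bar per 20 kb step, with all regions over 400 kb in the last bar. The 20 kb bar holds 381 extensions, while bridges start at 60 kb.

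The opposite displacement was rarer and narrower. Illumina LADs reached past a Nanopore LAD on 1 side in 297 places, which covered 12.14 Mb with a median width of 20 kb and a maximum of 280 kb. An Illumina LAD closed a whole Nanopore gap in 13 places, covering 1.36 Mb. Of the 2298 borders of Illumina LADs, 792 (34.5%) lay further out in the Nanopore list, 739 (32.2%) were at the same position, 297 (12.9%) lay further in and 292 were joined in a bridge. The remaining 178 belonged to none of these classes. Extensions outnumbered the inward shifts on 19 of 20 chromosomes and covered more bases on all 20. Chromosome 12 was the exception in number. The Nanopore list was also the larger in total, with 1480 Mb in LADs against 1353 Mb in the Illumina list. The excess of outward shifts was not separated from this difference.

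Most Nanopore LADs that met the 50% rule carried such a region. Of 924, 402 were extended on 1 side, 195 on 2 sides, and 125 held at least 1 bridge, so that 625 (67.6%) held a region of either kind. The added bases were 5.46% of the bases of these LADs. By width of the Nanopore LAD, they were 11.01% in the 247 LADs under 500 kb, 7.25% in the 470 from 500 kb to 2 Mb and 3.93% in the 207 of 2 Mb or more. Bridges followed the opposite order, being found in 0, 62 and 63 LADs of these classes. This order is in part built in, since the width of a bridged LAD includes the bridge and both Illumina LADs it joins. The LAD with most bridges (chr5:94960001-97940000) held 4 of them, which joined 5 Illumina LADs, and added 540 kb together with 1 extension.

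Extensions took up little of the space between LADs. For the 780 that faced another Illumina LAD, the Illumina gap in front had a median width of 740 kb. The extension filled a median of 6.25% of it (interquartile range 2.31% to 14.3%). In 14 cases it filled more than 50%. Bridges joined LADs of unequal size, the narrower neighbour having a median width of 290 kb and the wider one 1100 kb. In 27 of 146 cases the bridge was wider than its narrower neighbour.

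Few adjoining stretches lay just below the 50% rule, but some LADs sat exactly on it. The lowest share among members was 50% of the Nanopore LAD and the highest among adjoining stretches left out was 47.8%. LADs with a share of 50% are members only because the rule takes in that value. Among them is the LAD on chromosome 15 whose extensions held Olfr281, Olfr282, Olfr286 and Olfr287. The 18 members in LADs with 50% to 55% in Illumina LADs had a median width of 90 kb, and the 4 stretches from 45% to 50% had a median of 70 kb. In all, 106 adjoining stretches with 25.18 Mb lay below the rule.

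Gene content did not enter the rule. Protein-coding genes, placed by their midpoint, numbered 310 in extensions and 195 in bridges, which is 1.44% and 0.906% of the 21523 genes placed. These regions make up 2.19% and 0.787% of the mapped span. Extensions held 5.51 genes per Mb over all their bases, or 5.60 ± 1.74 (mean ± SD over 20 chromosomes). LAD bases in both lists, with 24.7% of the genes, held 4.13 ± 1.76 per Mb, and bases in no LAD, with 70.4%, held 14.0 ± 3.15. Over all their bases, extensions were nearer to LADs than to inter-LAD bases in gene density, and were below inter-LAD bases on 20 of 20 chromosomes. Their density was above that of LAD bases in both lists on 17 of 20 chromosomes, by 1.47 ± 1.54 genes per Mb. Chromosomes are not replicates, so the spread over them describes the genome and is no test.

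Flanks of the same width on either side of each extension place this more exactly. The flank inside the Illumina LAD held 5.26 ± 4.31 genes per Mb and the flank outside the Nanopore LAD 9.23 ± 3.10. The extension was below its outer flank on 20 of 20 chromosomes, with a mean difference of -3.64 ± 2.35 genes per Mb. Against the inner flank it was higher on 15 of 20, with a mean difference of 0.34 ± 3.49 that was well within the spread. In gene density, the Nanopore-only edges resembled the LAD interior beside them more than the sequence beyond them. Edges found by Illumina alone held 8.07 ± 5.34 genes per Mb. Extensions were lower than these on 12 of 20 chromosomes, a difference smaller than its spread (-2.47 ± 5.20).

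The order of extensions and shared LAD bases depended on how a gene was placed. Counting only genes wholly inside, extensions held 3.45 per Mb and LAD bases in both lists 3.67, so that the order turned. Counting any overlap gave 10.8 and 4.17. Extensions remained below their outer flanks under both, at 5.31 and 16.5 per Mb for those flanks. Any overlap raises, and whole containment lowers, the count in narrow regions.

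Gene density fell with the width of the extension. The 381 extensions of 20 kb held 8.40 genes per Mb, those of 40 kb 8.16, those of 60 to 100 kb 6.32 and those of 120 to 200 kb 6.16. The 53 wider than 200 kb held 2.94, less than the 3.98 of LAD bases in both lists. The 739 extensions of up to 200 kb together held 7.01 genes per Mb, so the pooled 5.51 rests in part on the 53 widest, which hold 36.9% of the bases. Many were small enough to miss genes altogether, and 566 of 792 (71.5%) held no protein-coding midpoint.

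Bridges held more genes than extensions. Their density was 9.63 genes per Mb over all their bases, or 9.72 ± 4.76 over 20 chromosomes. It was above that of extensions on 17 of 20 chromosomes (difference 4.12 ± 3.95) and above that of the flanks in the adjoining LADs, which have the bridge's width in total, on 16 of 20 (3.75 ± 4.16). It was below inter-LAD bases on 16 of 20 (-4.25 ± 4.47). Bridges therefore lay between LADs and inter-LAD sequence in gene density. Of the 146, 43 (29.5%) held no protein-coding midpoint.

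At borders with an extension, the profile of genes rose just outside the Nanopore border. At Illumina borders with an extension, the first 4 bins of 20 kb outward held 7.77, 9.56, 12.5 and 12.9 genes per Mb. At borders at the same position in both lists, these bins held 9.19, 15.6, 16.3 and 15.1. The rise at shared borders was thus steeper and higher within the first 80 kb. Measured instead from the outer end of the extension, which is the Nanopore border, density was 6.88 in the last bin inside and 11.1, 14.2 and 14.0 in the next 3 bins outside. The rise therefore sat within 40 kb of the Nanopore border. Each border counts equally in these profiles, whereas wide regions weigh more in the pooled densities.

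**Figure D2:**
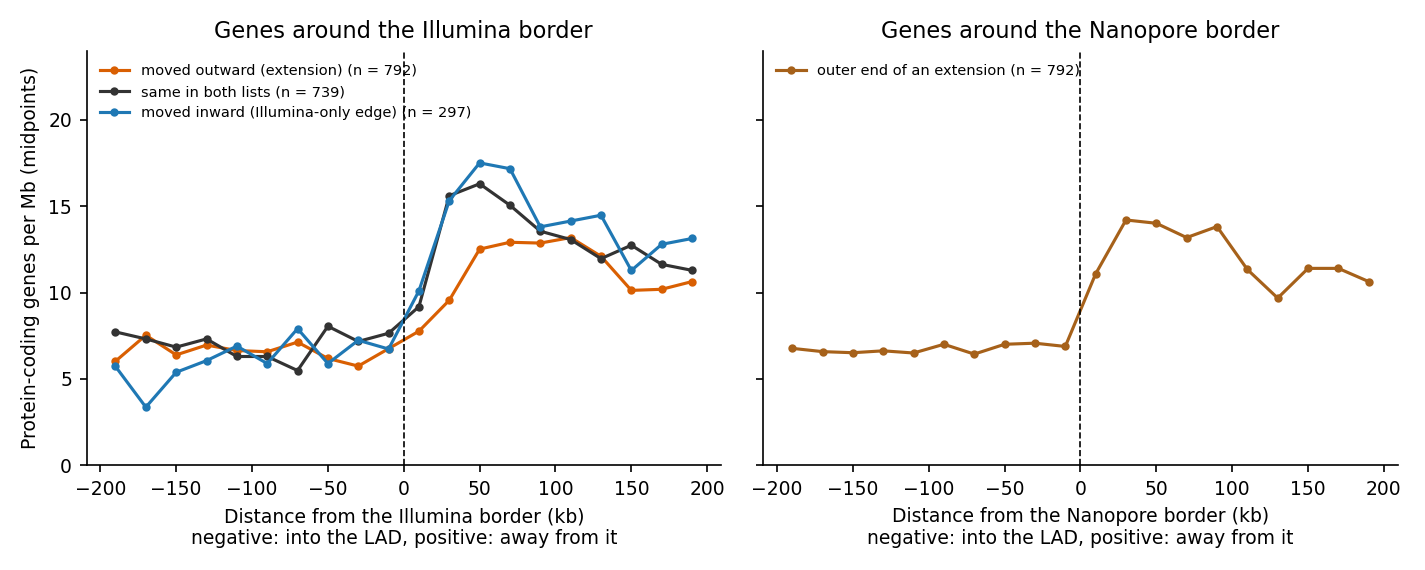
Protein-coding gene midpoints per Mb in 20 kb bins by distance in kb from the Illumina border (left: 792 borders with an extension, 739 at the same position in both lists, 297 further in by Nanopore) and from the Nanopore border at the outer end of the extension (right, n = 792). Negative distances point into the LAD. Density at extended borders rises from 7.77 to 12.5 over the first 3 bins outside the Illumina border, and from 6.88 to 14.2 across the Nanopore border.

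Promoter sequence separated extensions from bridges. A promoter of 300 bases (250 before the start and 50 from it) was called CpG-rich with at least 50% G+C and a CpG content of at least 0.6 of that expected from its C and G. Of 17274 promoters with a sequence, 46.3% were CpG-rich. In extensions the share was 27.6% (69 of 250, 95% Wilson interval 22.4% to 33.4%), between the inner flank at 14.2% (31 of 219, 10.2% to 19.4%) and the outer flank at 57.9% (238 of 411, 53.1% to 62.6%). These 3 intervals did not overlap. Promoters inside extensions were thus less often of the CpG island type than those just beyond, and more often than those just inside the Illumina LAD. The share was not particular to them: edges found by Illumina alone had 24.7% (21 of 85, 16.8% to 34.8%) and the other Nanopore-only stretches 24.5% (68 of 278, 19.8% to 29.8%), with intervals that overlapped that of extensions. Intervals cover counting error only, and neighbouring genes of one family are not independent.

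In bridges 52.8% of promoters were CpG-rich (93 of 176, 45.5% to 60.1%). In the flanks within the adjoining LADs the share was 17.8% (16 of 90, 11.2% to 26.9%), in LAD bases of both lists 15.04% and in inter-LAD bases 58.3%. Bridge promoters therefore resembled those of inter-LAD sequence, with an interval that held the inter-LAD value. Fmr1, Bub3 and Rpl31, shown above, are of this kind. The median number of CG per promoter was 15.5 in bridges, 6 in extensions, 3 in LAD bases of both lists and 18 in inter-LAD bases.

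**Figure D3:**
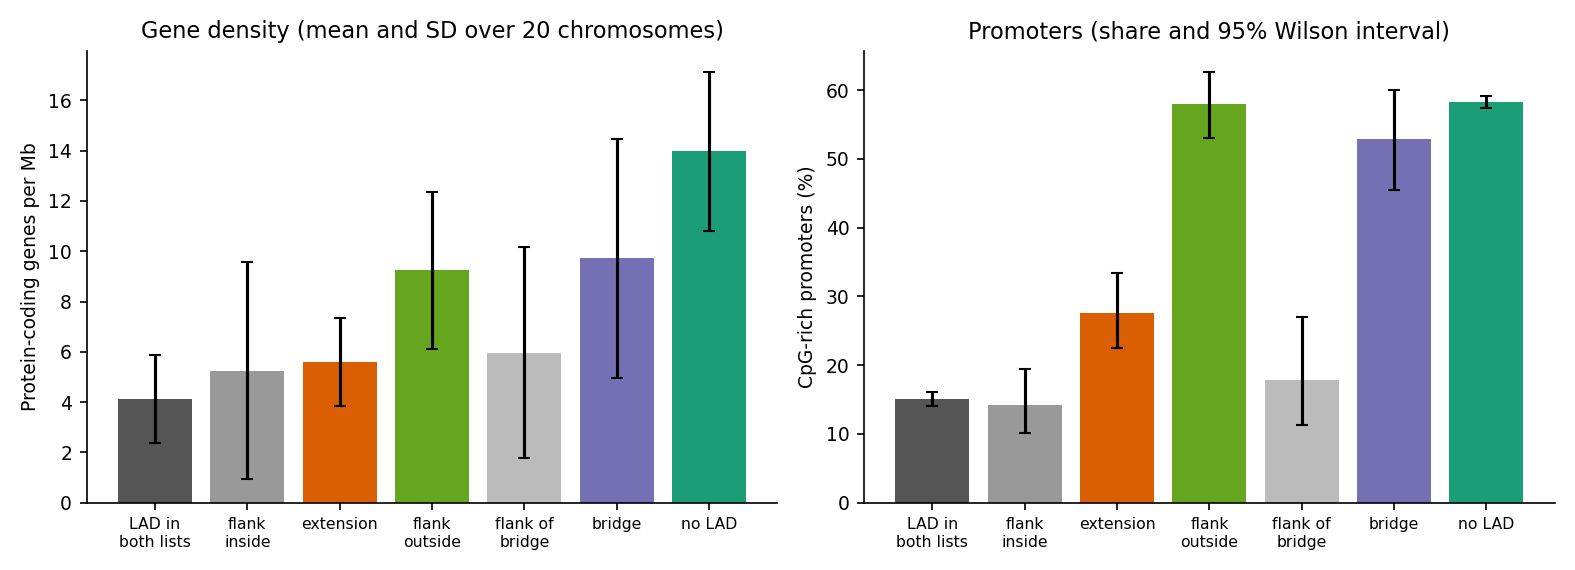
Left, protein-coding genes per Mb as mean and SD over 20 chromosomes. Right, percentage of promoters that are CpG-rich with 95% Wilson interval. Bars are LAD bases in both lists, the inner flank, the extension and the outer flank, the flanks of bridges, the bridges, and bases in no LAD. Extensions of all widths lie nearer LADs than inter-LAD bases in gene density (5.60 against 4.13 and 14.0; the 739 of up to 200 kb alone held 7.01, pooled), and bridges near inter-LAD bases in promoter type (52.8% against 58.3%).

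Wider extensions did not simply have more LAD-like promoters. The CpG-rich share was 25% at 20 kb, 24.2% at 40 kb, 30.6% at 60 to 100 kb and 37.7% at 120 to 200 kb, then 17.4% over 200 kb, where it rested on 8 of 46 promoters. In bridges it was 61.5% at 60 to 100 kb (40 of 65, 49.4% to 72.4%) and 50% at 120 to 200 kb (34 of 68, 38.4% to 61.6%). These intervals overlapped. Over 200 kb it was 44.2% (19 of 43), made up of 38.2% at 220 to 400 kb (13 of 34) and 66.7% at 420 kb to 1 Mb (6 of 9). The share therefore did not fall steadily with width.

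The share of promoters with the GATC site of Dam differed little between sets. The letters GATC, which read the same on both strands, were present in 50% of extension promoters (125 of 250), 42.6% of bridge promoters (75 of 176), 50.3% in LAD bases of both lists and 46.3% of all 17274 promoters. The 95% intervals of extensions and bridges overlapped. GATC over the whole of each region was not analysed here.

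Extension promoters showed little preference for a direction. Of 250, 113 (45.2%, interval 39.1% to 51.4%) read away from the LAD. Among CpG-rich promoters the count was 37 of 69, and among the others 76 of 181 (42.0%, 35.0% to 49.3%). The interval of the latter lay just below 50%.

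Bridges are best read against gaps of like width that the Nanopore list left in place. Of 1129 gaps between Illumina LADs, 146 (12.9%) were bridged, 667 were entered in part and 304 were not entered. The bridged share was 48.6% of gaps of 60 to 100 kb, 28.1% of those of 120 to 200 kb, 7.77% of those of 220 to 400 kb and 1.27% of those of 420 kb to 1 Mb. None of the 341 gaps over 1 Mb was bridged.

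Among gaps of 60 to 400 kb, those bridged held fewer genes. The 143 bridged gaps held 9.67 ± 4.88 genes per Mb (mean ± SD over 20 chromosomes), the 218 entered in part 12.4 ± 4.59 and the 180 not entered 15.1 ± 4.37. Bridged gaps were below those not entered on 15 of 20 chromosomes and below those entered in part on 12 of 20. The share without any protein-coding midpoint was 30.1% in bridged gaps and 11.7% in gaps not entered. Bridged gaps were narrower within this range, with 71 of 143 at 60 to 100 kb against 51 of 180 not entered. By width, the shares were 33.8% and 21.6% at 60 to 100 kb, and 30.4% and 13.8% at 120 to 200 kb. At 220 to 400 kb they were 12.5% (2 of 16) and 2.82% (2 of 71). Promoter type differed less. The CpG-rich share was 52.1% in bridged gaps (interval 44.6% to 59.5%) and 56.2% in gaps entered in part (51.9% to 60.5%), and these intervals overlapped.

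**Figure D4:**
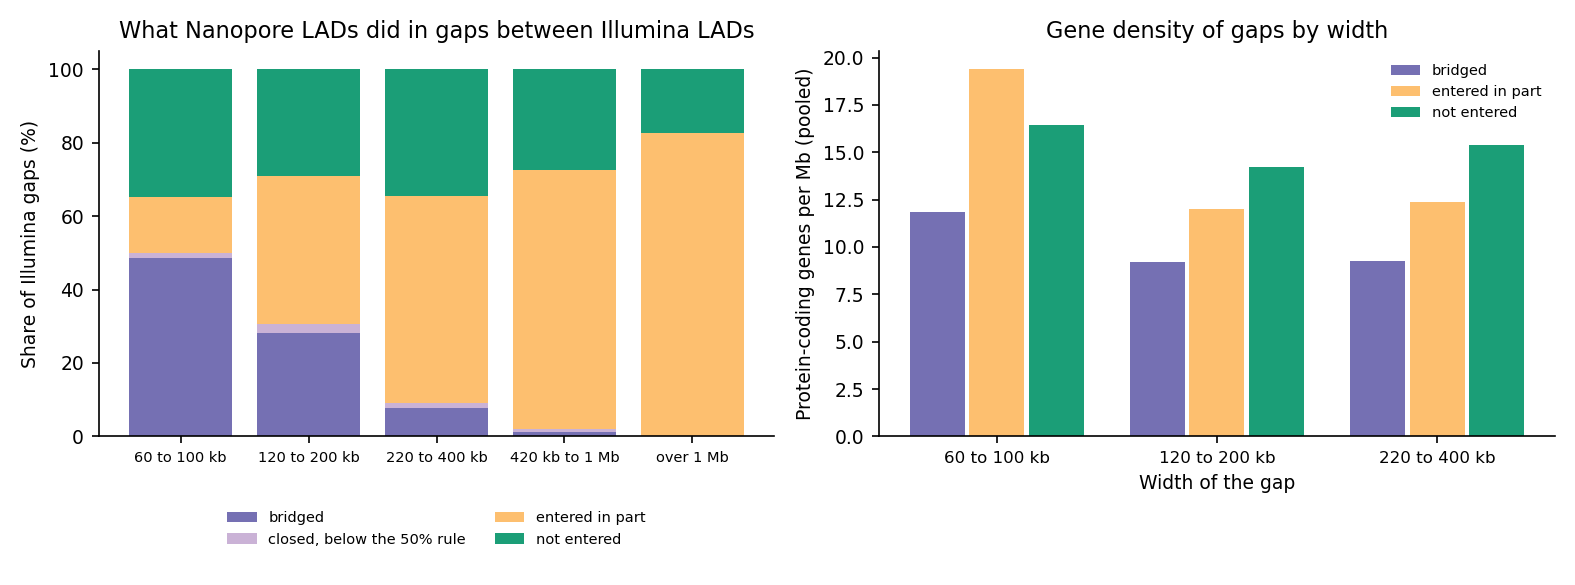
Left, share in percent of gaps between Illumina LADs, by gap width, that Nanopore LADs bridged, closed within a LAD under the 50% rule, entered in part or did not enter. Right, pooled protein-coding genes per Mb of gaps up to 400 kb. The bridged share falls from 48.6% to 0 with width, and in each width class bridged gaps hold fewer genes per Mb than gaps not entered.

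Chromosomes differed in how much was added. Extensions equalled 4.23 ± 1.11% of Illumina LAD bases (mean ± SD over 20 chromosomes), from 2.53% on chromosome 6 to 6.43% on chromosome 19. Bridges equalled 1.47 ± 0.95%, from 0.295% on chromosome 1 to 4.56% on chromosome X. Chromosome X was highest for both kinds together, at 10.97%, with 57 extensions of 6.16 Mb and 24 bridges of 4.38 Mb. Without chromosome X, 735 extensions and 122 bridges were left, and the median bridge was 100 kb.

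**Figure D5:**
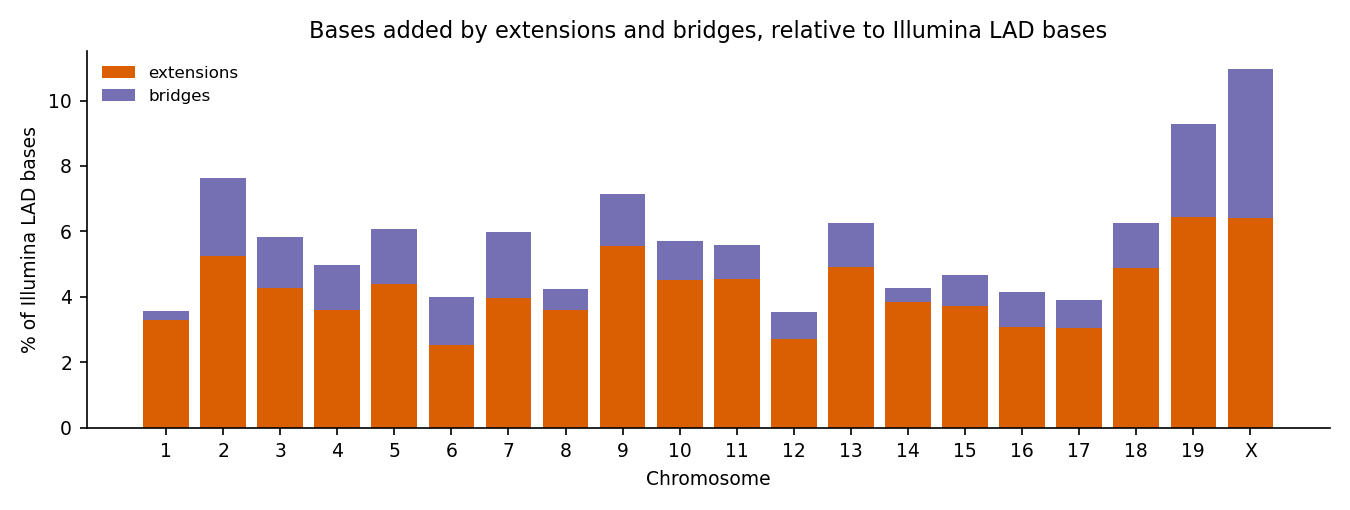
Bases in extensions and bridges on each chromosome as a percentage of its Illumina LAD bases, stacked. Chromosome X is highest at 10.97%, of which bridges are 4.56%, and chromosome 12 is lowest at 3.53%.

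The widest extensions held few genes. The widest (chr14:116880001-117860000, 980 kb) was taken up by Gpc6, encoding a glypican of the cell surface, with 88.7% of the gene inside it. The next (chrX:78000001-78940000, 940 kb) held 8 genes, among them Prrg1, a transmembrane protein, and the odorant-binding protein genes Obp1a and Obp1b. An extension of 740 kb (chrX:19400001-20140000) held Chst7, a sulfotransferase, and Tex13c3. An extension of 640 kb on chromosome 11 (chr11:111800001-112440000) held no protein-coding midpoint. On chromosome 6, 540 kb (chr6:139580001-140120000) held Pik3c2g, a lipid kinase, and the sperm genes Plcz1, a phospholipase, and Capza3, an actin-capping subunit. On chromosome 9, 540 kb (chr9:75700001-76240000) held Bmp5, a secreted growth factor, Hmgcll1 and Gfral. Of the 15 widest extensions, the one with Prrg1 held the most protein-coding genes, and 5 held no protein-coding midpoint.

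The widest bridges held between 0 and 16 genes. The widest (chrX:23540001-24380000, 840 kb) contained Wdr44, which encodes a WD repeat protein. The next (chrX:68600001-69080000, 480 kb) contained Fmr1, at chrX:68678536-68717963, and its neighbour Fmr1nb. A bridge of 460 kb (chr3:132660001-133120000) held 5 genes, including Tbck, Gstcd and Npnt, the last a matrix protein. A bridge of 260 kb (chr16:51980001-52240000) held Cblb, a ubiquitin ligase, and another of the same width (chr3:110120001-110380000) held Prmt6, an arginine methyltransferase.

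A few regions were rich in genes, and 5 of them held 46 genes. The bridge with most (chr7:102660001-102940000, 280 kb) held 15 class I olfactory receptor genes, such as Olfr33, Olfr556 and Olfr557, and Trim68. A second (chr7:131300001-131600000, 300 kb) held 10, among them Acadsb, a mitochondrial dehydrogenase, Cuzd1 and Bub3, in a Nanopore LAD with 52.5% of its bases in Illumina LADs. Another (chr9:39500001-39640000, 140 kb) held 6, with Olfr148 and Olfr957 to Olfr960 named.

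Several single genes lay whole in narrower bridges. The following were chosen after their positions were seen and stand for no group. Nuf2, a kinetochore protein, lay whole in a bridge of 60 kb (chr1:169480001-169540000), and Smc2, a condensin subunit, in one of 80 kb (chr4:52420001-52500000). Dbf4 and Cdc7 encode the subunits of a kinase that starts DNA replication. Dbf4 lay in a bridge of 160 kb (chr5:8380001-8540000) and Cdc7 in one of 80 kb on the same chromosome (chr5:106920001-107000000). Eomes, a T-box factor, lay in a bridge of 140 kb (chr9:118460001-118600000). The listed cell cycle genes, 12 in number, had 0 members in either kind of region, a list too small to set against 0.906%.

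Long genes crossed the added edges. Of 608 protein-coding genes that touched an extension, 194 lay inside it, with a median length of 9.18 kb. Another 135 reached from the Illumina LAD through the extension into inter-LAD sequence, with a median length of 202 kb. Of 252 genes that touched a bridge, 167 lay wholly within it, with a median of 18.4 kb. The longest gene that crossed from an Illumina LAD was Dmd, encoding dystrophin, with 85.0 of its 2390 kb in an extension. Lsamp, a neural adhesion gene, had 460 of 2197 kb in an extension that left 41.7 kb of it in inter-LAD sequence (chr16:41680001-42140000). Nrxn3, a presynaptic adhesion gene, had 140 of 1612 kb in a bridge, and the rest of it lay in Illumina LADs. Dlg2, Ctnna3, Pde4d and Galntl6 each crossed an extension of 20 kb. Dlg2 also spanned another extension of 20 kb (chr7:91420001-91440000), and Pde4d a whole bridge of 200 kb (chr13:109200001-109400000).

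Of the gene families listed, keratins had the highest share of members in extensions. Of 53 keratin genes, 11 (20.8%) lay in extensions, beside 1.44% of all protein-coding genes, and 0 in bridges. All 11 belong to the type I cluster of chromosome 11 and to a single LAD. Illumina placed this LAD at chr11:99480001-100140000 (660 kb) and Nanopore at chr11:99320001-100260000 (940 kb), so it was extended on both sides. The left extension of 160 kb held Krt26, Krt27, Krt28, Krt10, Krt12 and Krt20. The right one of 120 kb held Krt19, Krt9, Krt14, Krt16 and Krt17, keratins of simple, palm and sole, basal and wound epithelia. Of the 27 keratin genes on chromosome 11, 12 others lay in LADs of both lists and 4 in no LAD. Of the 26 on chromosome 15, 14 lay in no LAD. The other 12 lay in bases of 1 list only that were neither extension nor bridge. Keratin genes in bases of a single list were thus not particular to extensions. The 11 genes in extensions are neighbours, so they are 2 regions and not 11 separate cases. All 47 of 56 keratin-associated protein genes that lay in a LAD lay in LADs of both lists, and 0 in extensions or bridges.

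Sensory receptor genes were mostly in LADs of both lists. Of 1109 olfactory receptor genes, 1001 (90.3%) lay there, 14 (1.26%) in extensions, among them Olfr1274 and Olfr1357, and 20 (1.80%) in bridges, beside 0.906% of all genes. All 20 came from 2 bridges, on chromosomes 7 and 9. Of 350 vomeronasal receptor genes, 5 lay in extensions (Vmn1r93, Vmn1r107, Vmn1r111, Vmn1r240 and Vmn2r20) and 1, Vmn2r35, in a bridge. The extension shares, 1.26% and 1.43%, were near the background of 1.44%.

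Regulators of development gave 1 or 2 genes a list, beside the 1.44% of all genes in extensions. Hoxd3 and Hoxd4, 2 of 39 Hox genes (5.13%), lay in 1 extension of 20 kb (chr2:74720001-74740000), which also held the microRNA gene Mir10b. Foxa1, a pioneer transcription factor of endoderm, lay in an extension of 280 kb (chr12:57300001-57580000) and Foxi3, a factor of placode development, in one of 20 kb. They were 2 of 72 Sox, Pax and Fox genes (2.78%). Fgf5 was 1 of 41 Wnt and Fgf genes (2.44%) in an extension and lay in 320 kb (chr5:98040001-98360000). Among 397 Zfp zinc finger genes, 7 lay in extensions, such as Zfp229, Zfp329 and Zfp386, and 5 in bridges, such as Zfp644. These shares, 1.76% and 1.26%, were near the background.

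Solute carriers, channels and receptors followed. Of 375 solute carrier genes, 6 (1.60%) lay in extensions, among them Slc14a1, a urea transporter, Slc16a12 and Slc22a13, and 7 (1.87%) in bridges, among them Slc18b1. The shares of all genes were 1.44% and 0.906%. Kcna10 in an extension and Kcne1l in a bridge were the 2 of 94 potassium channel genes. Grik1, a kainate receptor subunit, was 1 of 27 glutamate receptor genes, with its midpoint in an extension of 200 kb on chromosome 16. Ntm, encoding neurotrimin, was 1 of 36 long neural adhesion and synapse genes by midpoint. By any overlap, 9 of the 36 touched an extension and 2 a bridge. Of all 21523 protein-coding genes, 608 touched an extension and 252 a bridge. The listed genes are long, and a long gene touches a region more readily, so this count was not read as a result about the list. Pcdh8 was 1 of 35 other cadherins and protocadherins, and Cyp2d9 and Cyp39a1 were 2 of 87 P450 genes, the pattern used taking in Cyp39a1.

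Genes used by all cells lay mostly outside LADs. Of 97 ribosomal protein genes, 90 lay in no LAD, 4 in LADs of both lists and 2 (2.06%) in bridges. These were Rpl31, in a bridge of 60 kb (chr1:39340001-39400000), and Rps12, in another of 60 kb (chr10:23760001-23820000). No listed proteasome, histone, complex I, lamina or housekeeping gene had its midpoint in an extension or bridge. The same held for lists of other kinds: neuroblast lineage, imprinted, collagen, serpin, GABA-A receptor, and semaphorin and ephrin genes. Of these, 44 of 52 serpin genes and 11 of 19 GABA-A receptor genes lay in LADs of both lists. The imprinted list has 18 genes and no microRNA gene, so it leaves out the microRNA genes of the Dlk1 and Meg3 region described below. With the shares of all genes at 1.44% and 0.906%, lists of 12 to 95 genes are too small to place against the background.

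MicroRNA genes were concentrated in 2 extensions. Of 1228 microRNA genes, 122 (9.93%) lay in extensions, 8 (0.651%) in bridges and 169 (13.8%) in LADs of both lists. Of the 122, 112 lay in 2 of the 11 extensions that held any. Without these 2 regions, chosen after the counts were seen, 10 were left, or 0.896%, which is below the share for protein-coding genes. MicroRNAs therefore gave a result about 2 clusters, not about extensions in general.

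The first of these extensions (chr2:10460001-10600000, 140 kb) held 72 microRNA genes between 10466663 and 10518279, within the gene Sfmbt2. All 72 microRNA genes within 500 kb lay in it. The adjoining Illumina LAD was chr2:10600001-11280000, and Sfmbt2 itself reached out of the extension into inter-LAD sequence. None of its mature sequences was matched here.

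The second (chr12:109640001-109880000, 240 kb) held 40 of the microRNA genes of the imprinted Dlk1 and Meg3 region, which are made from maternally expressed transcripts. Of 61 microRNA genes within 500 kb, 40 lay in the extension, 20 in no LAD and 1 in a LAD of both lists. The Nanopore border thus cut through the cluster. The 40 hairpins gave 74 mature sequences with 67 distinct seeds, of which miR-379-5p, miR-411-5p and miR-134-5p are shown above. The Nanopore LAD had 63.9% of its bases in Illumina LADs.

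The other 18 microRNA genes in extensions and bridges lay 1 or 2 to a region. The bridge on chromosome 1 (chr1:194980001-195060000, 80 kb) held Mir29b-2 and Mir29c, which lie within 1 kb of each other and share the seed AGCACCA. Mir155, a microRNA of immune cells, lay in an extension of 100 kb (chr16:84700001-84800000), and Mir107 and Mir1950 in one of 320 kb on chromosome 19 (chr19:34680001-35000000). Mir10b lay within the annotated interval of Hoxd4, in the extension described above.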

How the data were processed

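The authors deposited 2 interval lists used here, with coordinates and no score: consensus LADs by Nanopore (1174 on chromosomes 1 to 19 and X) and by Illumina (1149). Per the submitters' processing notes, minimap2, SAMtools, deepTools and bedtools and the build mm10 were used. How LADs were called, and from which samples, is not stated in the labels. A list of human CTCF peaks was not used.

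Illumina LADs were subtracted from Nanopore LADs in Python 3.11.15 with numpy 2.4.6 and pandas 2.3.3, which was tested on simulated LADs. Genes of GRCm38.p6 (RefSeq) were placed by midpoint, since the table has no strand. Of these, 340 genes listed below 3 Mb, before the placed sequence starts, were left out, and 21523 protein-coding and 1228 microRNA genes were used. Promoter sequences were matched by gene for 17274 protein-coding genes, none of them on chromosome 18. Outside it 82.2% of genes had one, and at least 80% in every set compared. A gap or flank set under 80% was not reported. The outermost start listed in the promoter table was used for each gene, and some genes reach further upstream in the gene table.

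Outer and inner flanks had the width of their extension and were shortened where a LAD ended or began. Gene densities are pooled, or mean and SD over chromosomes, and shares of promoters have Wilson intervals of 95%. No test was made, since regions, genes and chromosomes are not replicates. Members and gene lists were chosen with earlier results of these data known. Genes were named by rule: at most the 3 longest genes inside each of the 15 widest regions of a kind, the longest gene overlapping each of the 10 widest with no whole gene, the 10 longest genes crossing from an Illumina LAD, list members (all up to 6, otherwise the first 4 by alphabet), and up to 5 genes of the 5 regions with most genes. Some regions and genes that the rule names are not reported here. Genes of the printed sequences, of cell division, Trim68, Eomes, further keratins and microRNAs were chosen after their values were seen. Alternatives were the minimum share, the minimum width, chromosome X, merged Illumina LADs and gene placement.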

Additional observations from a re-analysis of the deposited data

How the results depend on the processing

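Of 167 recomputed values, 152 stayed within a limit set for their kind and 15 did not. The 152 include values that their setting could not change, so this number is no measure of robustness. Such are all values of the merge over 40 kb and the bridge values under the 40 kb minimum width. Values of shared LAD and inter-LAD bases under another minimum share are further cases. The limits were 1.5 times for counts, Mb and the microRNA share, less than 1 grid step for median widths, 1 SD over chromosomes for gene densities and the Wilson interval for promoter shares. With a minimum share of 75% the median extension was 20 kb, the median bridge 100 kb and the microRNA share in extensions 6.60%, since the chromosome 12 cluster (63.9%) falls out by construction, as do the keratin LAD (70.2%) and the Bub3 bridge (52.5%). With stretches of at least 40 kb only, 411 extensions were left, with a median of 80 kb. Without chromosome X the median bridge was 100 kb. Counting genes by any overlap gave 10.8 genes per Mb in extensions, 16.5 in outer flanks and 17.1 in edges found by Illumina alone, and genes wholly inside gave 3.45 and 5.31 for the first 2. Merging Illumina LADs over gaps of up to 40 kb changed nothing, as no gap was narrower than 60 kb. List counts were recomputed for gene placement only, by any overlap and by genes wholly inside. Of these 112 counts, 24 moved by more than 1.5 times. The other alternatives were not applied to list counts.

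The next alternatives were chosen after seeing the data. Merging Illumina LADs over gaps of up to 100 kb left 75 bridges with a median of 160 kb. Leaving out olfactory and vomeronasal receptor genes gave 20.4% CpG-rich promoters in LAD bases of both lists. Leaving out the 2 extensions with most microRNA genes gave a microRNA share of 0.896%.

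No paired analysis was possible because each method is a single list of intervals with no value per sample. For the same reason no replicate was left out. Base composition and GATC density of the regions were not analysed here. Borders move in steps of 20 kb, so the 381 extensions of 20 kb are a difference of 1 step.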
